A study of Mus musculus with 4 samples.

Results

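The genes described here encode the protein components of the cytosolic ribosome, the particle that translates messenger RNA. They were taken by symbol from the count tables: Rpl or Rps followed by a digit, Rplp followed by a digit, and Rpsa, leaving out the Rps6k kinases and symbols that contain -ps. The rule gave 84 of 16342 genes. Of these, 77 encode the canonical proteins (46 of the large subunit and 31 of the small), 5 are paralogs or copies of canonical genes (Rpl22l1, Rpl36al, Rpl39l, Rps27l and Rps27rt), and 2 encode other proteins with such a symbol (Rpl7l1 and Rps19bp1). All 84 were listed in each of the 4 tables. In microglia-like cells at week 5 of cuprizone treatment these genes held 15.3% and 9.96% of the unique molecular identifiers (UMIs, each marking 1 captured RNA molecule) of the libraries, against 5.18% and 6.54% at week 0.

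The cells came from the corpus callosum, the large white matter tract between the hemispheres, of male C57BL/6 mice aged 13 weeks. Live nucleated single cells positive for CD11b, an integrin subunit on the surface of myeloid cells, were sorted and profiled at the 3′ end of transcripts with droplets. The 4 libraries are week 0 replicates 1 and 2, from mice that were not treated, and week 5 replicates 1 and 2, from mice given cuprizone, a copper chelator that kills oligodendrocytes and strips myelin. No label states that the libraries of a week come from separate animals; the p-values below therefore reflect how far these samples vary, and that variation may be technical.

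Each table held 1000 barcodes, library totals lay between 2415001 and 6559032 UMIs, and the median barcode had 1454 to 6028.5 UMIs. After filters 3704 cells remained, of which 3559 in 10 of 14 clusters were microglia-like, 901 and 901 at week 0 and 905 and 852 at week 5 (replicates 1 and 2 of each week, the order used throughout). Libraries shared 6 cell barcodes between them. The label of microglia and macrophages was checked against markers. In microglia-like cells all 14 microglia markers, such as P2ry12 and Cx3cr1, were detected at both weeks, with a summed level of 35891 and 40690 CPM (UMI counts scaled to a common library size) at week 0 and 22823 and 27755 at week 5. The 12 markers of border-associated macrophages summed to 567 and 433 at week 0 and 1966 and 1040 at week 5 in the same cells, with Lyve1 and Cd209f at 0 at week 0. The 10 monocyte markers summed to 11.7 and 12.3 at week 0 and 149 and 38.5 at week 5, and Ly6c2, Chil3 and Ifitm6 were among those at 0 at week 0. At week 5 the mean was higher for 9 of the 12 macrophage markers, 6 of the 10 monocyte markers and 1 of the 14 microglia markers. Their part in the results below was not tested.

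A ribosome has a small subunit, which holds the messenger RNA and reads its codons, and a large subunit, which joins amino acids and lets the growing chain leave through an exit tunnel. Most of its proteins are needed in equal numbers for assembly with ribosomal RNA, and their messenger RNAs are among the most abundant of most cells. Many of these messenger RNAs start with a C followed by a run of C and T (the 5′ terminal oligopyrimidine tract, TOP), through which the protein Larp1 and the kinase complex mTORC1 set how strongly they are translated. Genes of translation factors carry the same tract and are often regulated together with them. Transcript levels do not measure how many ribosomes a cell has or how fast they work.

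The start sites of the members that the results turn on are shown because a tract, where present, begins at the start site. Of the 84 members, 64 matched the RefSeq promoter table (mouse build GRCm38.p6, the patched form of mm10), with 75 start sites. Members with no entry include Rps14, Rps27a, Rpl29, Rpl30, Rpl36, Rpl21, Rplp1, Rps29, Rpl7, Rpl23a, Rpl17, Rpl8, Rpl3, Rpl32 and Rps20. The windows run 5′ to 3′ on the strand of the gene from 20 bases before the annotated start site through 20 bases from it. Capitals mark the longest unbroken run of C and T anywhere in the window. A run can lie before the start site, outside the annotated transcript, as those of Rpl39 and Rpl10a do. Such a run is not a tract as defined above. The first 9 are the members that passed the test described below, followed by Rps27, the partner of Rps27rt, and by the 2 members that are not ribosomal proteins.
Rpl35 (chr2:39005112-39005151, minus strand): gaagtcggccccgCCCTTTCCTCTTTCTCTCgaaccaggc
Rpl38 (chr11:114668560-114668599, plus strand): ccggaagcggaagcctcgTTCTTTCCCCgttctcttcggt
Rpl22l1 (chr3:28805488-28805527, plus strand): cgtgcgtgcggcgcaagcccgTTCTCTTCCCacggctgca
Rps26 (chr10:128626487-128626526, minus strand): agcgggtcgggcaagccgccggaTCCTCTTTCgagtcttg
Rpl39 (chrX:37085203-37085242, minus strand): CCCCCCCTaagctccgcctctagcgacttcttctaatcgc
Rpl10a (chr17:28328451-28328490, plus strand): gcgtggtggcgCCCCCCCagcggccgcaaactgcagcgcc
Rpl36a (chrX:134585634-134585673, plus strand): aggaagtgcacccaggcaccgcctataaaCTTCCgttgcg
Rps28 (chr17:33824543-33824582, minus strand): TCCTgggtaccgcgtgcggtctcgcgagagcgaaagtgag
Rps27rt (chr9:114982720-114982759, minus strand): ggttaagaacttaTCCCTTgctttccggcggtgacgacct
Rps27 (chr3:90213629-90213668, minus strand): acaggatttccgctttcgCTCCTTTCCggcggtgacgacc
Rpl7l1 (chr17:46782637-46782676, minus strand): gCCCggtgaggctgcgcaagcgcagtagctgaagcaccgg
Rps19bp1 (chr15:80264287-80264326, minus strand): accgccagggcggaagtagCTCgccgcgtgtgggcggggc
The window of Rpl35 had a run of 18, those of Rpl38 and Rpl22l1 runs of 10, that of Rps26 a run of 9 and that of Rpl39 a run of 8. Rps28 had a run of 4, and Rpl7l1 and Rps19bp1 had runs of 3. Rpl10a has a second annotated start, not shown, with a run of 4 in its window. Rps27rt lies at chr9:114982366-114982739 and is a retrogene copy of Rps27. The windows of both hold the same 19 bases, ctttccggcggtgacgacc, and reads of such near-identical transcripts can be given to either gene.

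A run of at least 8 letters, each C or T, on the strand of the gene stood in 41.3% of the 75 member windows (31), in 16% of the windows of all 32851 start sites, and in 17.3% of the 75 windows of mitochondrial ribosomal protein genes, whose products work in another ribosome. The run could lie before or after the start site, so these percentages do not count tracts. Within the full 300 bases (250 before the start), the letters CCGGAAG on either strand, the core bound by ETS-family factors, were found for 36% of member start sites, 8.86% of all and 34.7% of the mitochondrial set. The letters AAGATGGC on either strand, a YY1-type motif, were found for 10.7%, 2.75% and 16%. Read on the other strand, CCGGAAG begins with 5 letters that are C or T, so the first 2 searches can overlap. These matches describe the letters and are not shown to be sites.

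Summed over cells, the share of UMIs in ribosomal protein transcripts was higher in both week 5 libraries than in both week 0 libraries. Over all microglia-like cells it was 5.18% and 6.54% at week 0 and 15.3% and 9.96% at week 5, means of 5.86% ± 0.957 and 12.6% ± 3.78 (SD, n = 2 each), a 2.15-fold difference. The groups did not overlap, but 2 libraries against 2 cannot go below p = 0.33 in the exact permutation test (two-sided p = 0.33). Week 5 replicate 1 stood well above the other week 5 library: the difference of 6.77 percentage points was 4.09 when it was left out and 9.44 when week 5 replicate 2 was. In all 3704 cells the shares were 5.65% and 6.64% against 15.2% and 10.5%. With cells limited to 2996 genes, the highest number in the table of week 5 replicate 2, they were 5.18% and 6.47% against 13.4% and 9.96%. With the 50 highest other genes left out of the total, the shares were 7.06% and 8.62% against 21.1% and 13.4%. Taken as the median over cells, the share was 1.73% and 6.04% at week 0 and 10.9% and 4.23% at week 5. By that measure the weeks overlapped, with week 5 replicate 2 below week 0 replicate 2.

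The share differed with the depth of the cell. Cells with at least 3000 UMIs (deep, 1916 cells) and those with under 2000 (shallow, 1378 cells) had different shares in every library, with 265 cells in between; the limits were chosen after the data were seen, and a cell's total includes its ribosomal protein UMIs. In deep cells the share was 7.83% and 6.73% at week 0 and 16.1% and 11.7% at week 5. In shallow cells it was 1.62% and 2.07% at week 0 and 2.07% and 2.79% at week 5. Deep cells made up 25% and 73.1% of microglia-like cells at week 0 and 70.2% and 46.6% at week 5, so that the libraries of a week differed from each other in this mix more than the weeks did. Within each depth class both week 5 libraries were at or above both week 0 libraries, with a 1.91-fold difference in deep cells and a 1.32-fold difference in shallow cells (exact permutation test, two-sided p = 0.33 in each, the smallest 2 against 2 allow).

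**Figure D1:**
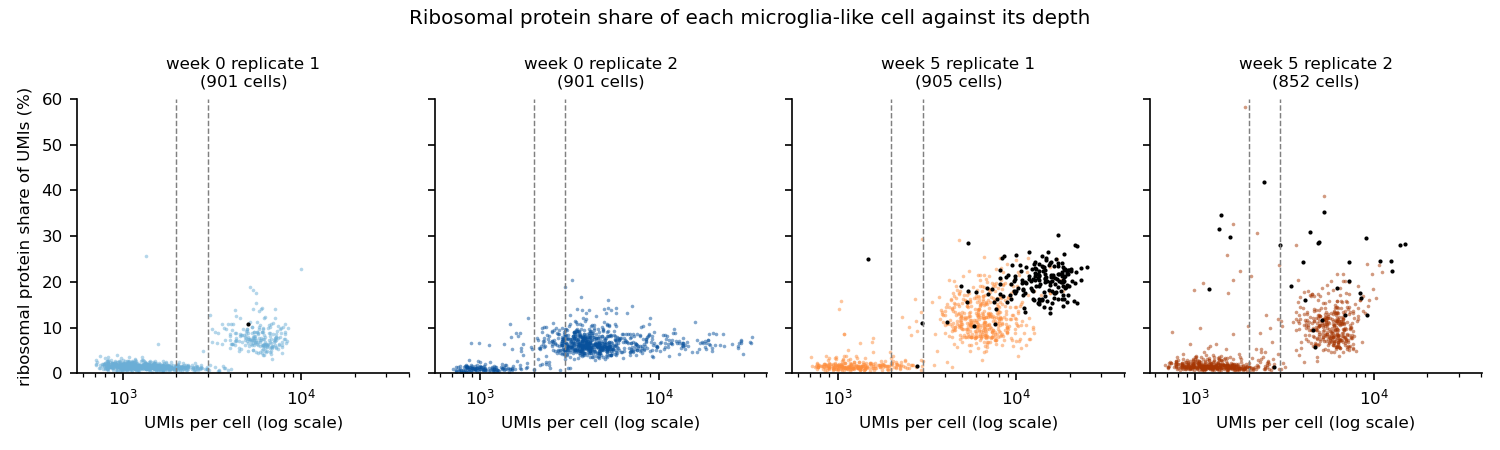
Ribosomal protein share of UMIs (%) of each microglia-like cell against its total UMIs (log scale), 1 panel per library. Dashed lines stand at 2000 and 3000 UMIs and black points are cells of the Apoc1-led cluster; a low band near 1 to 2% lies at the left in every library, and the cloud of deeper cells reaches higher at week 5, where its median is 14.3% and 10.6% against 7.37% and 6.4%.

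The plot of share against depth shows a low band and a higher cloud rather than a gradual rise. Of week 0 replicate 1 cells 74.9% had a share under 3%, against 16.2% of week 0 replicate 2, 26.5% of week 5 replicate 1 and 45.7% of week 5 replicate 2. Shares of at least 10% were found in 4.11% and 5.44% of cells at week 0 and in 55.9% and 28.1% at week 5. Among cells with 4000 to 6000 UMIs the median share was 7.69% and 6.09% at week 0 and 11.4% and 10.5% at week 5. Among cells with 1000 to 1500 UMIs it was 1.57% and 1.03% against 1.52% and 1.62%, with no gap between the weeks.

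The step from the low band to the cloud lay at a lower depth in week 0 replicate 2 than elsewhere. Its cells with 2000 to 3000 UMIs had a median share of 6.43%, against 1.34% in week 0 replicate 1 and 1.96% and 1.97% at week 5. In a window of 1000 to 4000 UMIs the shares were 1.93% and 6.43% at week 0 and 4.09% and 4.61% at week 5, with the groups overlapping. With each cell thinned to 1000 UMIs the shares were 3.39% and 6.29% at week 0 and 11.7% and 7.49% at week 5. Thinning keeps the expected share of each cell and drops cells under 1000 UMIs. It weights cells equally but cannot remove the link between depth and share. Malat1, a nuclear non-coding RNA used here as a sign of RNA quality, took 13.1%, 12.5%, 11.1% and 14.3% of the UMIs of shallow cells in the order of the libraries, and 3.88%, 4.56%, 2.28% and 3.87% of those of deep cells. Its part in the difference between the depth classes was not tested.

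Between deep and shallow cells of the same library, every ribosomal protein gene tested was higher in the deep cells. All 83 genes passed (edgeR quasi-likelihood test with the library as a block, adjusted p between 3.79e-11 for Rpl23a and 2.19e-05 for Rpl7l1), beside 26.6% of all 9875 genes tested. The depth limits were set after the data were seen and lie around the step in share of most libraries. These p-values are therefore descriptive and give no separate support for the difference. The median log2 fold change was 2.57 (5.92-fold), and it ranged from 1.08 for Rpl7l1 to 3.05 for Rps23, a protein of the decoding centre. Rps23 had a level of 1260 and 931 CPM in deep cells at week 0 and 3079 and 1713 at week 5, against 218, 217, 214 and 341 in shallow cells. Its deep and shallow values did not overlap, and its shallow values were alike in 3 of the 4 libraries. The lowest differences after Rpl7l1 were those of Rpl22l1 (1.48), Rps19bp1 (1.61), Rpl10a (1.71) and Rpl36al (1.76), so that 4 of the 5 lowest were not canonical proteins. Leaving out week 0 replicate 1 or 2, or week 5 replicate 1 or 2, gave 83 genes each time, beside 21.2%, 24.9%, 24% and 22% of all genes, with medians of 2.29 to 2.77. The lists of other genes behaved unequally: 22 of 22 other TOP transcripts and 54 of 77 mitochondrial ribosomal protein genes were higher in deep cells, while all 16 tested genes of the RNA quality list (nuclear non-coding and mitochondrially encoded RNAs) were lower, with a median of -0.86.

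Gene by gene, week 5 was compared with week 0 on UMIs summed over the microglia-like cells of each library. Levels are in CPM, UMI counts scaled to the effective library size; they come from transcript ends and are not scaled by length. Of the 84 genes 83 had enough counts to test; Rpl39l, a paralog of Rpl39, had 3 and 5 UMIs at week 0 and 16 and 4 at week 5. Of the 83, 9 rose at an adjusted p under 0.05 (edgeR quasi-likelihood test, Benjamini-Hochberg adjustment over all genes) and none fell, 0 also at an unadjusted p, beside 2.99% of all 11054 genes tested that rose. The median log2 fold change of the 83 was 1.33 (2.51-fold), while that of all genes was -0.02. At an unadjusted p under 0.05, 81 of 83 were higher at week 5 (all genes: 9.38%), and 81 had both week 5 libraries above both week 0 libraries (all genes: 20.6%). The 2 that did not were Rpl7l1 and Rps19bp1, the members that are not ribosomal proteins. By subunit, 5 of 46 canonical large subunit genes rose, with a median of 1.29, and 2 of 31 canonical small subunit genes, with a median of 1.40; the other 2 were the copies Rpl22l1 and Rps27rt.

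**Figure D2:**
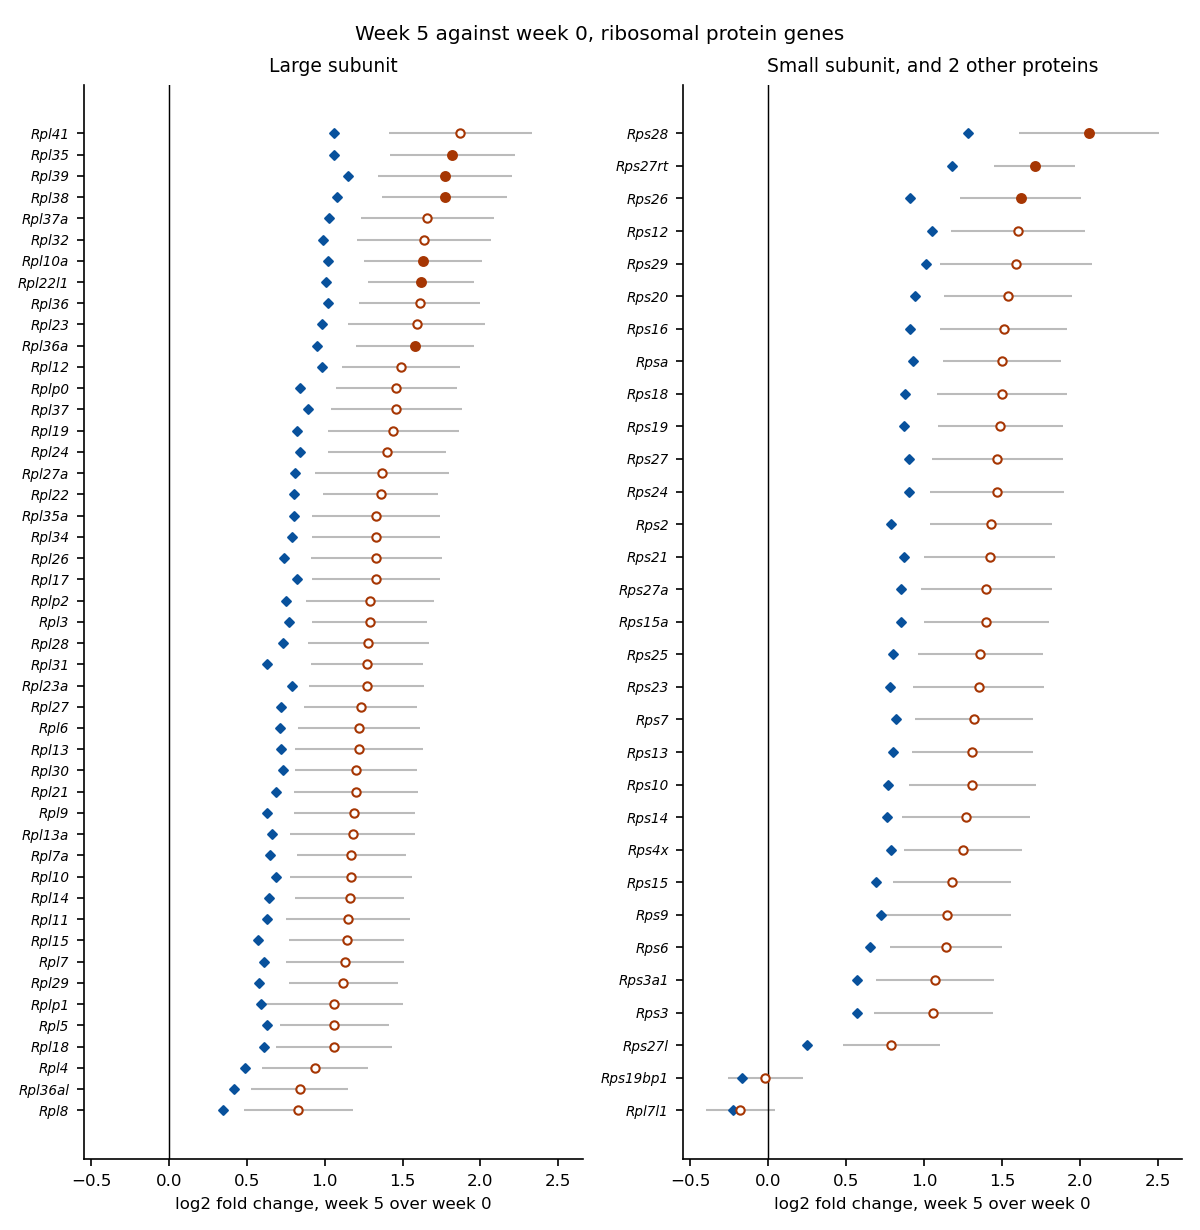
Log2 fold change, week 5 over week 0, of ribosomal protein genes, with the standard error as a bar; the large subunit is on the left, the small subunit and 2 other proteins on the right. Filled circles passed the edgeR test in all microglia-like cells and open ones did not; blue diamonds give the value in deep cells without the Apoc1-led cluster, and all genes shown but Rpl7l1 and Rps19bp1 lie right of 0 in both.

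The number that passed changed with the libraries included. Week 5 replicate 1 was above replicate 2 in all 83 genes, by a median of 0.89 on the log2 scale, and this spread between replicates entered every test. Without week 5 replicate 2, 81 of 84 genes passed (all genes: 10.2%), without week 5 replicate 1 there were 2 (all genes: 1.68%), without week 0 replicate 1 also 2 (all genes: 3.54%), and without week 0 replicate 2 there was 1 (all genes: 2.52%). The lone library of a week is then taken to vary like the other pair. DESeq2 on the same sums called 77 of 83, beside 3.95% of all genes. In all cells 2 of 83 rose, Rps27rt and Rpl22l1, beside 2.33% of all genes.

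Of the small subunit genes that rose, Rps28 had the largest change of all members. It encodes a small protein at the site where the messenger RNA leaves the subunit. Its level was 822 and 601 CPM at week 0 and 4002 and 1927 at week 5, a log2 fold change of 2.06 (SE 0.45, edgeR adjusted p = 0.0283). Both week 5 libraries were far above both week 0 libraries. Rps26, which lies next to it at the exit channel, had 418 and 475 at week 0 and 1840 and 911 at week 5 (log2 fold change 1.62, SE 0.39, edgeR adjusted p = 0.0477). Rps27rt had 93.8 and 94.2 at week 0 and 358 and 255 at week 5, a log2 fold change of 1.71 with the smallest adjusted p of the members (SE 0.26, edgeR adjusted p = 0.0038). Its parent gene Rps27 had 966 and 941 at week 0 and 3495 and 1800 at week 5, and did not pass (log2 fold change 1.47, SE 0.42, edgeR adjusted p = 0.0952).

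Rpl35, at the mouth of the tunnel, had 403 and 379 CPM at week 0 and 1861 and 891 at week 5 (log2 fold change 1.82, SE 0.40, edgeR adjusted p = 0.0286). Rpl39, a very small protein that lines the tunnel, had 855 and 846 at week 0 and 3855 and 1930 at week 5 (log2 fold change 1.77, SE 0.43, edgeR adjusted p = 0.0487). Rpl38, known from mice whose skeleton is mispatterned when it is lost, had 574 and 571 at week 0 and 2575 and 1332 at week 5 (log2 fold change 1.77, SE 0.40, edgeR adjusted p = 0.0351). In these 3 genes the week 0 libraries were nearly equal, and the week 5 libraries differed from each other, on a log scale, about as much as the lower of them differed from week 0.

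Rpl10a forms the mobile stalk beside the exit site of transfer RNA. It had 344 and 437 CPM at week 0 and 1593 and 819 at week 5 (log2 fold change 1.63, SE 0.38, edgeR adjusted p = 0.0421). Rpl36a, which contacts transfer RNA at the same site, had 290 and 337 at week 0 and 1276 and 599 at week 5 (log2 fold change 1.58, SE 0.38, edgeR adjusted p = 0.0481). Rpl22l1, a paralog that can take the place of Rpl22, had 111 and 108 at week 0 and 460 and 212 at week 5 (log2 fold change 1.62, SE 0.34, edgeR adjusted p = 0.0243). Rpl22 itself had 347 and 460 at week 0 and 1352 and 723 at week 5 and did not pass (log2 fold change 1.36, SE 0.37, edgeR adjusted p = 0.0815). Of these 9 genes, Rps27rt passed in each of 16 alternative settings of scaling, test, filters, thinning, clustering and left-out libraries, and Rpl22l1 in 14. These settings did not split cells by depth: in cells with under 2000 UMIs Rps27rt did not pass (log2 fold change 0.87, edgeR adjusted p = 0.352).

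**Figure D3:**
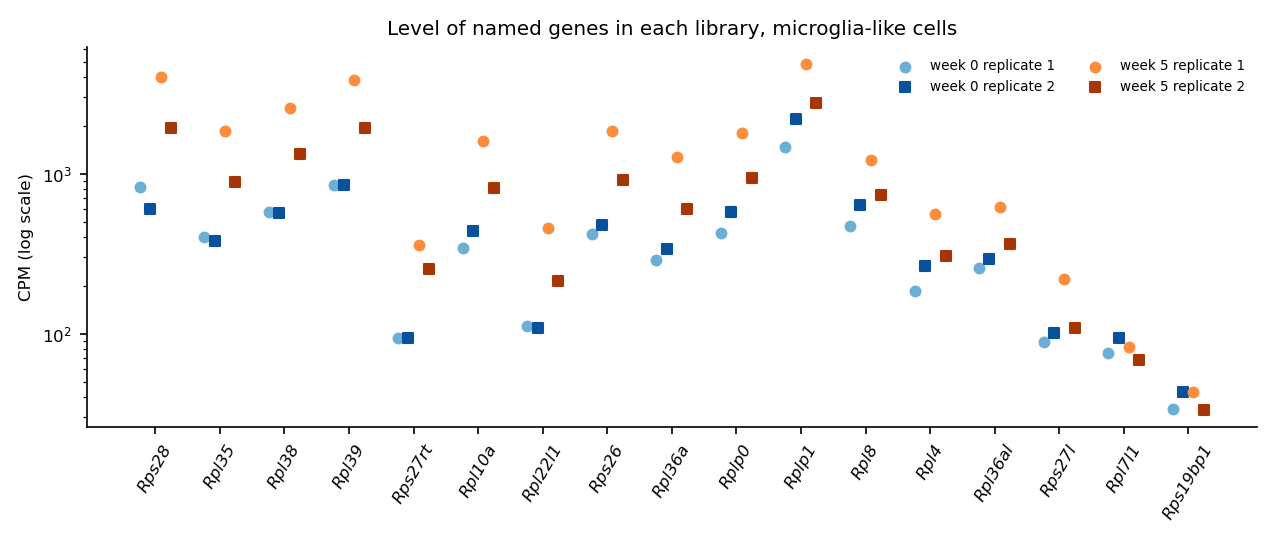
Level (CPM, log scale) of 17 named genes in each of the 4 libraries, microglia-like cells; blue marks week 0, orange and brown week 5, circles replicate 1 and squares replicate 2. Week 5 replicate 1 is highest for every gene shown except Rpl7l1 and Rps19bp1, whose groups overlap.

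Most of the genes with the highest UMI counts did not pass. Rps29, a small zinc-binding protein of the small subunit, had the highest level of all members, 2672 and 2390 CPM at week 0 and 10215 and 5047 at week 5 (log2 fold change 1.59, SE 0.49, edgeR adjusted p = 0.133). Rps29 alone held 5.61%, 3.93%, 5.54% and 5.16% of ribosomal protein UMIs in the order of the libraries. Rplp1, of the acidic stalk that recruits elongation factors, came next with 1469 and 2192 at week 0 and 4831 and 2781 at week 5 (log2 fold change 1.06, SE 0.44, edgeR adjusted p = 0.308). Its partners in the stalk, Rplp0 and Rplp2, had log2 fold changes of 1.46 and 1.29 (edgeR adjusted p = 0.0792 and 0.137). Rpl41, which encodes a peptide of the large subunit, had 896 and 931 at week 0 and 4701 and 1992 at week 5, just short of the threshold (log2 fold change 1.87, SE 0.46, edgeR adjusted p = 0.0544). Among other genes of high level, Rps21, Rps24, Rps12, Rpl37a and Rpl35a had log2 fold changes of 1.33 to 1.66 and edgeR adjusted p between 0.0685 and 0.133.

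The lowest changes of canonical genes were near 1 on the log2 scale. Rpl8, at the catalytic centre, had 469 and 636 CPM at week 0 and 1217 and 741 at week 5, so that the lower week 5 library was little above the higher week 0 library (log2 fold change 0.83, SE 0.35, edgeR adjusted p = 0.319). Rpl4, which lines the tunnel, and Rpl18 had 0.94 and 1.06 (edgeR adjusted p = 0.206 and 0.19). Rps3, Rps3a1 and Rps6, the target of the S6 kinases, had 1.06, 1.07 and 1.14 (edgeR adjusted p = 0.213, 0.206 and 0.137). Rpsa, which also goes by the name of laminin receptor, had 1.50 (SE 0.38, edgeR adjusted p = 0.06).

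The paralogs and the other proteins differed among themselves. Rpl36al, a copy of Rpl36a, had 259 and 292 CPM at week 0 and 621 and 366 at week 5 (log2 fold change 0.84, SE 0.31, edgeR adjusted p = 0.229), and Rps27l had 88.8 and 101 at week 0 and 219 and 108 at week 5 (log2 fold change 0.79, SE 0.31, edgeR adjusted p = 0.262). Rpl7l1, a factor of ribosome assembly, had 76 and 93.8 at week 0 and 82.4 and 68.2 at week 5 (log2 fold change -0.18, SE 0.22, edgeR adjusted p = 0.832). Rps19bp1, which binds Rps19, had 33.9 and 43.4 at week 0 and 43.2 and 33.3 at week 5 (log2 fold change -0.02, SE 0.24, edgeR adjusted p = 0.988). The partners Rpl7 and Rps19 had log2 fold changes of 1.13 and 1.49 (edgeR adjusted p = 0.167 and 0.0795). Ribosomal protein genes have many processed pseudogenes, so that counts of any member can gain or lose reads to copies; the 3 rows with -ps symbols that the rule left out held 0.16% of the members' UMIs.

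The large and small subunits moved together. Large subunit genes held 2.87% and 3.7% of UMIs at week 0 and 8.41% and 5.5% at week 5, and small subunit genes 2.31% and 2.83% against 6.88% and 4.45%. Their ratio was 1.243 and 1.307 at week 0 and 1.223 and 1.237 at week 5. The difference in the mean was -0.0454, smaller in size than the gap between the week 0 libraries. The groups did not overlap (exact permutation test, two-sided p = 0.33, the smallest 2 against 2 allow). Without the gene of highest level in each subunit, Rplp1 and Rps29, the ratios were 1.343 and 1.346 at week 0 and 1.328 and 1.326 at week 5, a difference of -0.0174. In deep cells the ratio was 1.235 and 1.305 at week 0 and 1.222 and 1.235 at week 5, and in shallow cells 1.294 and 1.316 against 1.313 and 1.216, with the groups touching in deep cells and overlapping in shallow ones.

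Within deep cells 4 of 83 genes rose from week 0 to week 5 (edgeR, all genes: 2.49%), and 80 had both week 5 libraries above both week 0 libraries (all genes: 21.5%). They were Rps27rt, Rpl22l1, Rpl10a and Rpsa, with edgeR adjusted p of 0.017, 0.0363, 0.038 and 0.0408. Rpsa had 550 and 532 CPM in deep cells at week 0 and 1743 and 1094 at week 5, a log2 fold change of 1.39 (SE 0.30). The median over the 83 was 1.14 (2.21-fold). Leaving out week 5 replicate 1 gave 36 genes (all genes: 2.64%) and leaving out week 5 replicate 2 gave 81 (all genes: 8.51%). Leaving out week 0 replicate 1 gave 4 (all genes: 4.05%) and leaving out week 0 replicate 2 gave 1 (all genes: 3.04%).

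Within shallow cells 4 of 81 genes tested rose, beside 1.61% of all 6383 genes tested, with a median over the 81 of 0.45. They were Rps26, Rps28, Rpl36 and Rpl41, with edgeR adjusted p of 0.0117, 0.0386, 0.0386 and 0.0497. Rps26 had 113 and 155 CPM in shallow cells at week 0 and 229 and 333 at week 5 (log2 fold change 1.18, SE 0.27). Here week 5 replicate 2, not replicate 1, was the higher. Without week 0 replicate 1 or week 5 replicate 2 none passed in edgeR (9 and 5 at an unadjusted p under 0.05), beside 1.12% and 0.937% of all genes. Without week 5 replicate 1 there were 10 (all genes: 1.63%), and DESeq2 called none. In cells with 1000 to 4000 UMIs 0 of 83 genes passed in edgeR (all genes: 1.17%), 0 had an unadjusted p under 0.05, and the median was -0.03.

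The change with week was larger in deep than in shallow cells by a median log2 difference of 0.70 over 83 genes. None of the 83 passed the edgeR test of this week by depth interaction (lowest adjusted p 0.998), beside 0.0203% of all genes in either direction. Without week 5 replicate 2, 6 passed (all genes: 0.164%). Without week 5 replicate 1 the median was 0.11.

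Shares differed strongly between the clusters of microglia-like cells, which were made without the ribosomal protein genes and are named here by their leading gene. At week 0 most cells lay in the Gm43221-led cluster (57.5% and 10.4%) or the Gp9-led one (6.44% and 58.7%), while at week 5 the Gm43221-led (16.4% and 26.6%), Gm11808-led (25.5% and 13.3%) and Ddit4-led (13% and 22.2%) clusters held most, so that the comparison of weeks above also compares different clusters. The cluster led by Apoc1, with genes of the disease-associated state such as Fabp5, Cst7 and Spp1, had a median share of 20.3% in week 5 replicate 1 and 24.4% in week 5 replicate 2. It held 181 and 30 cells there, 20% and 3.52% of the microglia-like cells, and was deep in replicate 1 (median 14259 UMIs) and less so in replicate 2 (5060). Malat1 held a median of 1.35% of the UMIs of these cells in replicate 1 and 0.0413% in replicate 2. Its part in their shares was not tested. The cluster led by Gm11808 followed with 14.3% and 13.4% at week 5 (231 and 113 cells); Fau, Eef1b2 and Tpt1, genes of translation outside the rule, were among its leading genes. A cluster led by Cxcl10 and interferon-induced genes had 11.6% and 9.9%. The clusters of shallow cells led by Gm43221 and Gm2237 had medians of 0.9% to 1.59% in all 4 libraries.

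**Figure D4:**
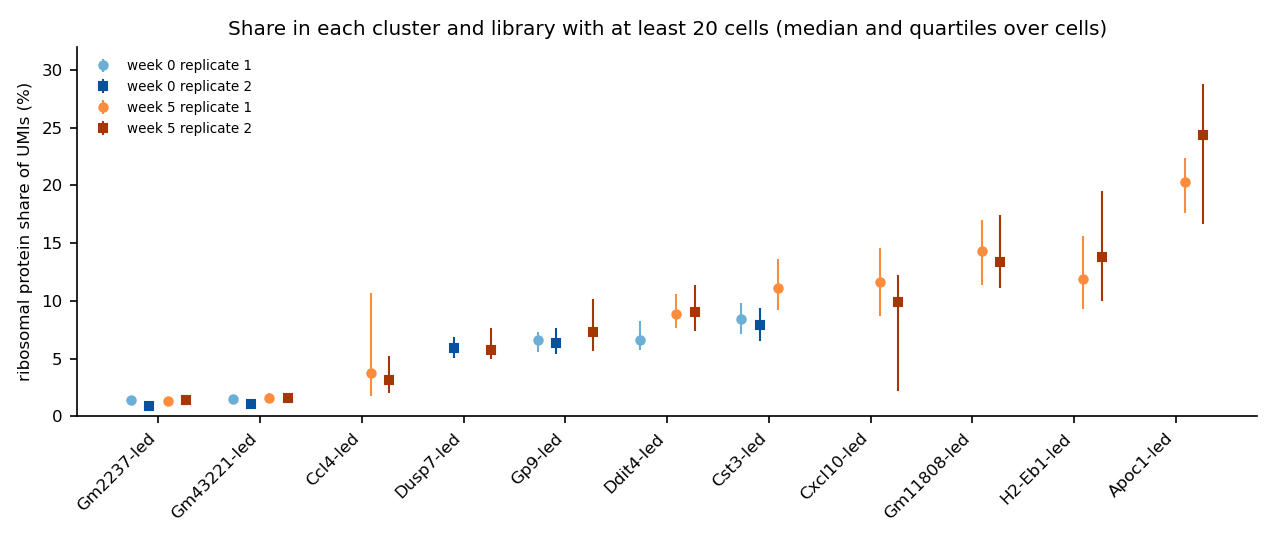
Median and quartiles over cells of the ribosomal protein share of UMIs (%), for each cluster and library with at least 20 cells; blue marks week 0, orange and brown week 5. Clusters are named by their leading gene, the H2-Eb1-led one is border-associated macrophage-like, and the Apoc1-led cluster lies highest.

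A few clusters had cells of both weeks. In the Cst3-led cluster the median was 8.42% and 7.91% at week 0 and 11.1% in week 5 replicate 1. In the Ddit4-led cluster it was 6.63% in week 0 replicate 1 and 8.88% and 9.07% at week 5. In the Gp9-led cluster it was 6.57% and 6.34% against 7.27% in week 5 replicate 2, and in the Dusp7-led cluster 5.9% in week 0 replicate 2 against 5.77% in week 5 replicate 2. Of the low-depth clusters with cells of all 4 libraries, the Gm2237-led had medians of 1.4% and 0.9% at week 0 against 1.31% and 1.39% at week 5, and the Gm43221-led 1.53% and 1.03% against 1.59% and 1.55%. The week 5 medians were above all week 0 medians in the Cst3-led, Ddit4-led, Gp9-led and Gm43221-led clusters, below in the Dusp7-led and overlapping in the Gm2237-led. In the Gm43221-led cluster the gap was very small (1.55% against 1.53%). In the Cst3-led, Ddit4-led, Gp9-led and Dusp7-led clusters, week 0, week 5 or both had a value from a single library only. Border-associated macrophage-like cells had medians of 12.7% and 10.1% at week 0 (16 and 6 cells) and 11.9% and 13.8% at week 5 (29 and 26 cells), with the weeks overlapping. Summed over these cells, the share was 12.9% and 11.1% at week 0 and 14% and 14.8% at week 5, without overlap.

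The Apoc1-led cells were compared with the Ddit4-led cells. Summed over deep cells, the share was 20.3% and 22.1% at week 5 in the Apoc1-led cluster and 9.26% and 9.55% in the Ddit4-led cluster. It was 14.9% and 14.6% in the Gm11808-led cluster, which lay nearer to the Apoc1-led and was not compared gene by gene. Among deep cells of the same library (178 against 110 deep cells in replicate 1, 23 against 183 in replicate 2), all 77 canonical genes were higher in the Apoc1-led cells in both libraries, with median ratios of 2.12 and 2.25. The lowest ratios of canonical genes were 1.59 for Rpl5 in replicate 1 and 1.76 for Rpl4 in replicate 2. The highest in both was that of Rpl41, 3.49 and 3.29. The members Rpl7l1 and Rps19bp1, which are not ribosomal proteins, were lower in the Apoc1-led cells. Their ratios were 0.5 and 0.929 for Rpl7l1 and 0.718 and 0.811 for Rps19bp1. Rpl41 had 5907 CPM in the Apoc1-led cells and 1692 in the Ddit4-led cells of replicate 1, and 5699 and 1730 in those of replicate 2. Malat1 held a median of 1.35% and 0.0412% of UMIs in these Apoc1-led cells, against 3.42% and 4.41% in the Ddit4-led cells. The ratios describe clusters and are not tested, and neither was the part of Malat1 in them.

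Leaving out the Apoc1-led cluster lowered the change and narrowed the replicates. The share was then 5.17% and 6.54% at week 0 and 11.7% and 9.13% at week 5, and 28 genes passed (edgeR, all genes: 3.04%), with a median log2 fold change of 0.90. In deep cells without that cluster the share was 7.82% and 6.73% at week 0 and 12.8% and 10.9% at week 5, a 1.63-fold difference. There 63 of 83 genes passed (edgeR, all genes: 3.35%), with a median of 0.79. Rps28 had the highest change among them, 1.28 (SE 0.28, edgeR adjusted p = 0.0163), and Rpl8 the lowest of the canonical genes, 0.35 (SE 0.17, edgeR adjusted p = 0.421). The count fell to 9 when week 0 replicate 2 was left out (all genes: 2.08%) and to 22 when week 5 replicate 1 was (all genes: 2.24%). The border-associated macrophage markers summed to 467 and 435 CPM in these cells at week 0 and 884 and 828 at week 5. The mean was higher at week 5 for 8 of the 12 markers, and for 3 both week 5 libraries were above both week 0 libraries. Cd163 and Lyve1 were at 0 in both weeks, and Ms4a7 and Cd209f at week 0 only. The part of these markers in the difference was not tested.

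Across single deep cells, the ribosomal protein share was set against the share of disease-associated genes. Spearman's rho was 0.0664 and 0.0724 at week 0 (225 and 659 cells) and 0.684 and 0.507 at week 5 (635 and 397 cells). With the interferon genes it was 0.0802, -0.0119, 0.262 and 0.164, and with the microglia markers -0.432, -0.346, -0.726 and -0.645. With Malat1 it was -0.457, -0.384, -0.638 and -0.371, and with the mitochondrial share 0.325, 0.294, 0.445 and 0.211. With depth it was 0.00642, -0.0285, 0.509 and 0.0606, so that a rise with depth among deep cells was seen in week 5 replicate 1, the library with most Apoc1-led cells. These are descriptions over cells that share a library, and shares of 1 total depend on each other.

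The lists of other protein synthesis genes had smaller median changes, apart from the short list of cytosolic ribosomal proteins under other symbols. The median of that list was the value of Fau. Fau, which encodes a small subunit protein under another symbol, had 1452 and 1922 CPM at week 0 and 5876 and 3138 at week 5 (log2 fold change 1.42, SE 0.45, edgeR adjusted p = 0.148). Rack1, a signalling scaffold bound to the small subunit, had a log2 fold change of 1.15 (SE 0.36, edgeR adjusted p = 0.133). Of 22 other TOP transcripts, a list that includes both, 2 rose (Gas5 among them, all genes: 2.99%), with a median of 0.91. DESeq2 called 11 of the 22, beside 3.95% of all genes called higher at week 5. Gas5, a host gene of small nucleolar RNAs that encodes no protein, had 155 and 134 at week 0 and 431 and 273 at week 5 (log2 fold change 1.29, SE 0.29, edgeR adjusted p = 0.0327).

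None of 9 elongation, 28 initiation, 30 ribosome biogenesis, 78 mitochondrial ribosomal protein and 18 mTORC1 pathway genes passed the edgeR test in either direction. At an unadjusted p under 0.05 there were 4, 8, 3, 6 and 1 higher at week 5, beside 9.38% of all genes. The counts of biogenesis, mitochondrial ribosomal and mTORC1 genes were near or below that share. The medians of the 5 lists were 0.57, 0.34, 0.24, 0.23 and 0.02 on the log2 scale, beside 1.33 for the ribosomal proteins. DESeq2 called 3, 2, 1, 0 and 0 of the genes of these lists, all higher at week 5 (all genes: 3.95%). Eef1a1, the factor that brings transfer RNA to the ribosome, had 1173 and 1637 CPM at week 0 and 4112 and 2378 at week 5 (log2 fold change 1.21, SE 0.43, edgeR adjusted p = 0.2). Eef2k, a kinase that slows elongation, had 167 and 158 at week 0 and 104 and 107 at week 5 (log2 fold change -0.62, SE 0.22, edgeR adjusted p = 0.197). Mtor and Larp1 had -0.10 and -0.01 (edgeR adjusted p = 0.935 and 0.99). Genes of the disease-associated state (14 of 17 rose, median 6.13) and of the interferon response (15 of 15, median 3.41) changed far more.

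**Figure D5:**
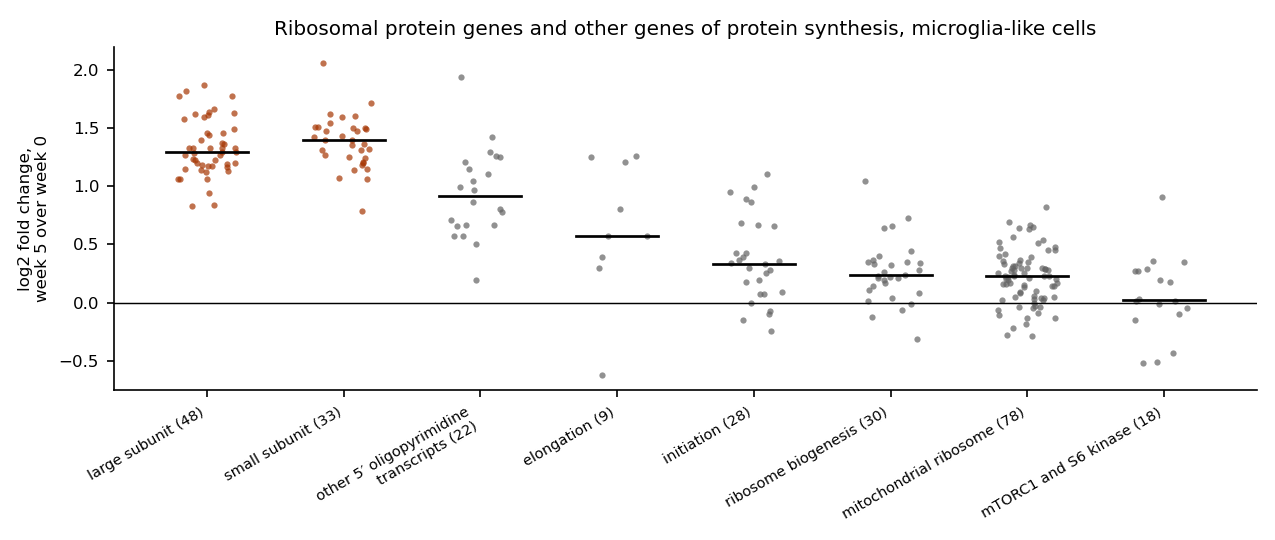
Log2 fold change, week 5 over week 0, of each tested gene of the ribosomal protein set (brown) and of lists of protein synthesis genes (grey) in microglia-like cells; black bars are medians and numbers in parentheses are genes tested. The medians are 1.29 and 1.40 for the subunits and 0.91 down to 0.02 for the other lists.

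Shorter transcripts had somewhat larger median changes. The 77 canonical genes have annotated transcripts of 345 to 5130 bases. The median log2 fold change was 1.58 for the 11 under 500 bases, 1.33 for the 30 of 500 to 800 and 1.27 for the 36 of 800 or more. Across these genes, which are not independent replicates, Spearman's rho between length and change was -0.273 and Pearson's r -0.0891, given as a description.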

How the data were processed

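For each of 4 libraries the authors deposited a table of raw UMI counts, whole numbers by their values, with genes against barcodes. The submitters' processing notes name STAR, Cell Ranger 3.0.0, Seurat 4 and mm10 without stating what each was used for. The use of strand in counting and the choice of barcodes are not given in the sources used here.

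Barcodes under 500 genes or above 10% mitochondrial UMIs were removed (272 of 4000). Doublets were called with scrublet (scanpy 1.11.5), which took out another 24 (0.644%). Cells were scaled to 10000 UMIs and clustered without the members (2000 variable genes, 30 components, 15 neighbours, Leiden resolution 1). Cluster names came from marker sums and the 10 leading genes, by a rule set after the clusters were seen. No cluster was compared with the rest by a test.

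UMIs were summed per library and fitted across all genes with edgeR 4.0.16 in R 4.3.3 (quasi-likelihood test, TMM factors, its filter on low counts, Benjamini-Hochberg adjustment, threshold 0.05). Shares and ratios were compared with an exact permutation test (scipy 1.17.1). Alternatives used DESeq2 1.42.0, limma-voom (limma 3.58.1), other scalings and filters, other cells, and leaving out each library. The edgeR script was tested on simulated data.

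The members and gene lists were chosen with earlier results of these data known. Named members are those called, the 5 highest levels and the 4 highest and lowest changes of each subunit, the stalk proteins, Rpsa, and paralogs with their partners; the others named, such as Rps23, Rpl23a, Rpl36 and Rpl5, were chosen after their values were seen. Precision is limited by 2 libraries per week. Some genes are not reported here by name; they remain in all fits and counts.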

Additional observations from a re-analysis of the deposited data

How the results depend on the processing

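Numbers of called ribosomal protein genes depended on the setting. In microglia-like cells (9 genes) the count was 20 with library size as the only scaling, 77 with DESeq2, 66 with no filter on low counts, 3 with cells thinned to 1000 UMIs, 71 with a common upper limit on genes per cell, 2 in all cells, 4 in deep cells, 4 in cells with at least 4000 UMIs, 4 in shallow cells, 0 in cells with 1000 to 4000 UMIs, 28 without the Apoc1-led cluster and 63 in deep cells without it. In all cells (2) it was 15 with library size only, 77 with DESeq2, 5 with limma-voom and 66 with no filter. In deep cells (4) it was 23, 74 and 77 with library size only, DESeq2 and no filter. In shallow cells (4) it was 0 with DESeq2 and 11 with limma-voom, and in deep cells without the Apoc1-led cluster (63) it was 38 with library size only. Leaving out each library gave 1 to 81 (microglia-like), 0 to 81 (all cells), 1 to 81 (deep), 0 to 10 (shallow), 9 to 71 (deep without the Apoc1-led cluster) and 0 to 6 (interaction). The number of all genes called also moved with several of these settings, as given below. Where no number of all genes is given, as with the replicate block below, the count of members cannot be set against it. The causes were not tested.

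Over all genes, 368 were called in microglia-like cells; the count was 835 with no filter, 149 thinned, 579 with the common limit, 101 in cells with 1000 to 4000 UMIs, 119 in shallow cells and 195 to 1469 leaving out each library. In all cells (285) it was 446 with DESeq2, 925 with no filter and 151 to 1373 leaving out each library. With library size only, 324 rose and 111 fell (main scaling 331 and 37), the median of all genes moved to -0.25 and that of the members to 1.06. The difference in share (6.77 percentage points) was 3.7 as a median over cells, 0.171 in cells with 1000 to 4000 UMIs, 0.589 in shallow cells and 4.09 to 9.44 leaving out each library. Rps19bp1 (-0.02) changed sign with DESeq2 (0.00), the common limit (0.06), no cell filter (0.01), all cells (0.02) and without week 0 replicate 2 or week 5 replicate 2 (0.19), ranging from -0.22 to 0.19 as each library was left out. For 34 named genes and 544 values, 412 stayed on their side of the threshold, 46 lost and 80 gained a call, and 6 turned sign. Replicate numbers were not taken to pair the libraries (correlation of deviations -0.149): with the replicate block 4 members were called in microglia-like cells, 81 in deep and 8 in shallow cells; with the crossed pairing 73 members and 612 genes were called in microglia-like cells, 21 members in all cells and 2 in deep cells.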
